A study of Mus musculus with 16 samples.

Results

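To ask what the first 45 min of proteasome inhibition do to the transcriptome of a fibroblast, the 4 libraries harvested 45 min after addition of bortezomib were set against the 4 untreated control libraries (0 min). These are 8 of the 16 libraries of the series, chosen by their titles, and the others (135 and 405 min) served only to choose the genes tested and to estimate the spread between replicates. All libraries came from NIH3T3 cells, an immortalized mouse fibroblast line. Per the study's methods, the cells stably expressed DD-sfGFP, superfolder GFP fused to a destabilizing domain made from FKBP12, and had been sorted for bright fluorescence. The transgene was thus present in the controls too. This domain is degraded unless the ligand Shield-1 is bound, and whether the ligand was in the medium of these samples was not stated in the labels, nor was the dose of bortezomib. Vehicle-treated cells at 45 min were not analysed here, so the drug and the elapsed time cannot be told apart.

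Bortezomib blocks the chymotrypsin-like site of the proteasome, the protease that removes ubiquitin-tagged proteins. Cells are known to answer a blocked proteasome through several transcription factors. Hsf1 drives genes of cytosolic chaperones, Nfe2l1 drives proteasome subunit genes, Nrf2 drives antioxidant genes, Atf4 drives genes of amino acid and ER stress, and p53 drives cell cycle arrest genes. Immediate early genes such as Fos, Jun and Egr1 answer many stimuli within minutes, before other target genes. A harvest at 45 min may be early for some of these programs, which was not tested here.

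The 45 min libraries were of 2 kinds, and this bears on every result that follows. Ribosomal protein genes (97 symbols that start with Rpl or Rps and a digit, of which 10 are S6 kinases) took up 0.541%, 1.21%, 0.441% and 0.398% of fragments in control replicates 1 to 4. Their share was 8.34% and 9.42% in 45 min replicates 1 and 2, and 0.408% and 0.423% in replicates 3 and 4. Replicates 1 and 2 thus exceeded 4%, which no control did, while replicates 3 and 4 lay within the control range. In the shallowest library, 45 min replicate 4, the 95% Wilson interval of the share was 0.407% to 0.439%, which covers counting error only. Olfactory and vomeronasal receptor genes, 1445 members of multigene families that can share reads and that fibroblasts are not known to use, showed the reverse. They held 4.16% to 5.02% of fragments in the controls, 4.72% and 4.70% in 45 min replicates 3 and 4, but only 0.00556% and 0.228% in replicates 1 and 2.

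**Figure D1:**
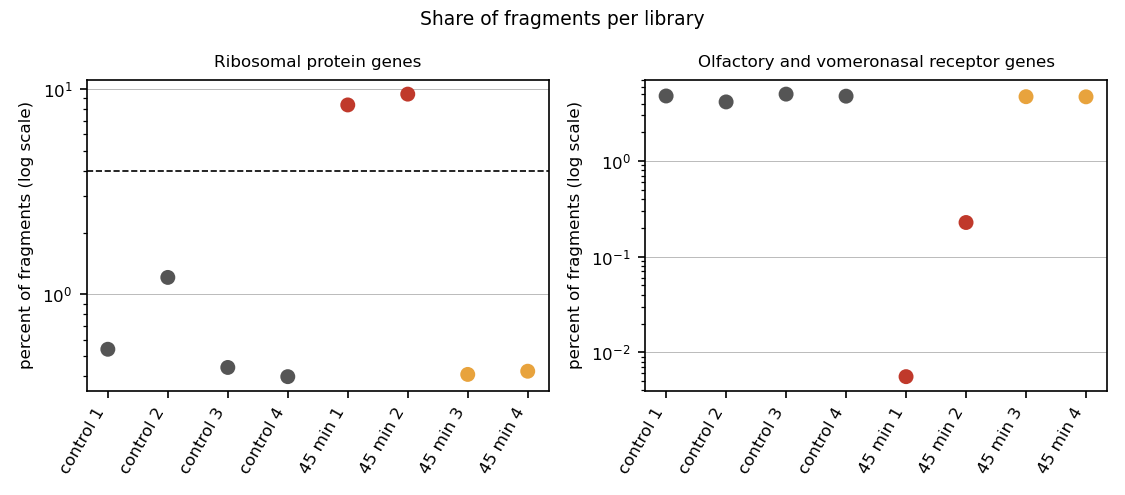
Percent of fragments (log scale) in ribosomal protein genes (left; dashed line at 4%) and in olfactory and vomeronasal receptor genes (right), 1 point per library, with controls in grey, 45 min replicates 1 and 2 in red and 45 min replicates 3 and 4 in orange. The red points stand apart from all others in both panels, at 8.34% and 9.42% on the left and at 0.00556% and 0.228% on the right.

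Other properties followed the same line. The controls held 861482 to 891245 fragments each, and the 45 min libraries 18381116, 6107601, 1469951 and 624254. The 10 genes with the most fragments were the same 10 in all 6 libraries under 4%, led by Zfp488 with 4.53% to 5.33% of fragments in the controls. In 45 min replicates 1 and 2 the gene with the most fragments was Eef1a1 (1.74% and 1.23%), the elongation factor that delivers aminoacyl-tRNA to the ribosome. Across all genes, log2(CPM + 1) values of replicates 1 and 2 correlated with a Pearson r of 0.894, and those of replicates 3 and 4 with 0.647. CPM is the number of fragments of a gene per 1000000 fragments assigned to genes. The median r was 0.404 between replicates 1, 2 and the controls and 0.344 between replicates 1, 2 and replicates 3, 4. It was 0.676 between replicates 3, 4 and the controls and 0.707 among controls. These correlations run over genes, which are not independent replicates. Genes with no fragment made up 45.2% and 38.7% of all genes in replicates 1 and 2 despite their depth, 11.9% and 25.6% in replicates 3 and 4, and 6.71% to 27.7% in the controls. Counts also followed transcript length less closely in replicates 1 and 2 (Spearman rho across 19565 genes 0.368 and 0.417) than in the controls (0.581 to 0.742) or in replicates 3 and 4 (0.689 and 0.590).

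Fibroblast markers were checked against markers of other cells. The 20 fibroblast markers summed to 0.0710% to 0.238% of fragments in the controls, and to 2.76%, 2.10%, 0.0731% and 0.0767% in 45 min replicates 1 to 4. None of them was at 0 in all 8 libraries, and the same held for each other cell type listed except erythroid cells. Muscle markers summed to 0.125% to 0.165% in the controls and to 0.148% and 0.151% in replicates 3 and 4, at least as much as the fibroblast markers in those 2 libraries, but to 0.000560% and 0.00472% in replicates 1 and 2. The lists for epithelial, endothelial, immune, neuronal, hepatocyte and erythroid cells had the same order, with 0.0755% the highest control value (endothelial) and 0.00475% the highest value in replicates 1 and 2 (neuronal). In replicate 1, 8 of 10 muscle and 11 of 12 epithelial markers were at 0, and 3 of 8 erythroid markers were at 0 in all 8 libraries. Fibroblast markers stood above those of other cells in 45 min replicates 1 and 2, whereas among the other 6 libraries they summed to more than the muscle markers only in control replicate 2. The part of this split in any gene difference below was not tested beyond the values given beside it.

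**Figure D2:**
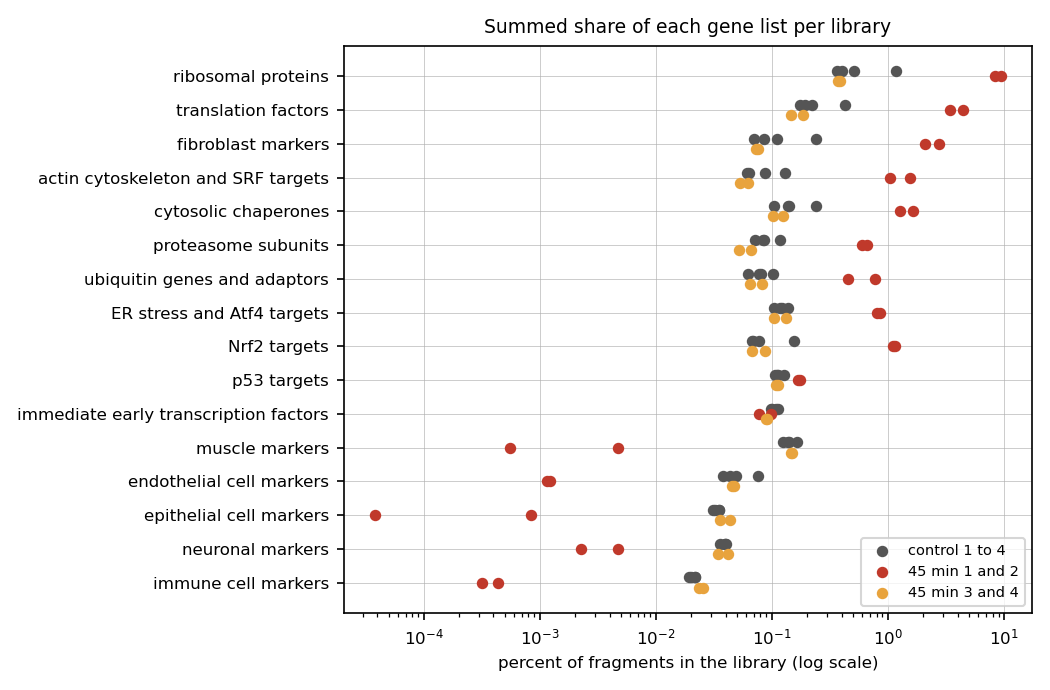
Summed share of fragments (x axis, percent, log scale) of each gene list (y axis), 1 point per library, with controls in grey, 45 min replicates 1 and 2 in red and 45 min replicates 3 and 4 in orange. For most lists the orange points lie among or next to the grey ones, while the red points lie above them for ribosomal proteins (8.32% and 9.40% without the S6 kinases) and fibroblast markers and below them for markers of other cells.

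No gene passed the test at 45 min. Of 5030 genes with at least 1 fragment in every library, 0 (0%) differed from control once p-values from the quasi-likelihood test of edgeR were adjusted (Benjamini-Hochberg, threshold 0.05), and the smallest adjusted p was 0.381. With a nominal p (before adjustment) under 0.05, 609 were higher (12.1%) and 39 lower (0.775%). Of the other tests, edgeR's exact test called 0 genes, with 739 higher and 52 lower at a nominal p under 0.05, whereas DESeq2 called 330 higher (6.56%) and 0 lower. DESeq2 had set the adjusted p of 3706 genes aside by its filter on low means, and without that filter it called 1 gene, Tceal8. Nothing in the labels says that the replicates were separate cultures, so these p-values measure the spread between samples, which may be technical.

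Each difference was then weighed against the difference inside the 45 min group, in mean log2(CPM + 1) after TMM scaling. The median absolute difference from the control mean was 1.58 for replicates 1 and 2 and 0.38 for replicates 3 and 4, and between the 2 pairs it was 1.70. A difference over 2-fold from control was seen for 3334 genes in replicates 1 and 2 and for 648 in replicates 3 and 4. Both pairs lay on the same side of control for 2355 of 5030 genes. The mean difference of the whole group from control was larger than the difference between the pairs for 834 genes (16.6%), 427 of them higher (8.49%) and 407 lower (8.09%). This requires both pairs to lie on the same side of control, neither over 3 times as far as the other. All 4 libraries lay above all 4 controls for 73 genes (1.45%) and below them for 135 (2.68%).

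**Figure D3:**
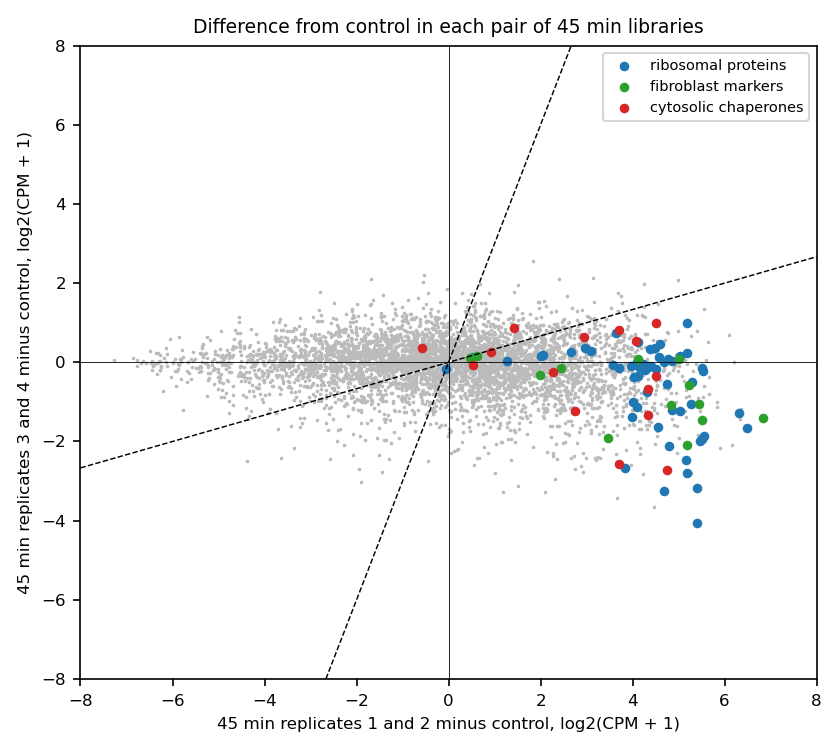
Difference from the control mean in log2(CPM + 1), for 45 min replicates 1 and 2 (x axis) and 45 min replicates 3 and 4 (y axis), 1 point per gene for 5030 genes, with ribosomal protein genes in blue, fibroblast markers in green and cytosolic chaperones in red. Genes between the dashed lines differ from control by more than the pairs differ from each other (834 genes), and the colored genes lie mostly far to the right, near or below 0 on the y axis.

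When only replicates 1 and 2 stood for 45 min, 640 genes were higher (12.7%) and 340 lower (6.76%) at an adjusted p under 0.05. When only replicates 3 and 4 did, 0 passed, with 9 higher and 29 lower at a nominal p under 0.05. Since no control library had a ribosomal protein share over 4%, the drug and the kind of library cannot be told apart in the comparison of replicates 1 and 2.

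The heat shock genes illustrate the split. Hspa8, the constitutive cytosolic Hsp70, had 160, 165, 113 and 141 CPM in control replicates 1 to 4 and 4572, 1185, 107 and 122 CPM in 45 min replicates 1 to 4. Its first 2 libraries at 45 min were far above the controls and the others were at the control level. The fitted log2 fold change was 3.80 ± 1.71 (SE, n = 4 per group; adjusted p = 0.381, edgeR), and the difference between the pairs, 4.85, exceeded it. Hsp90aa1, the inducible cytosolic Hsp90, read 216, 443, 208 and 84.4 CPM in control and 2659, 3193, 135 and 125 CPM at 45 min, the same order. Hsph1, an Hsp110 nucleotide exchange factor of Hsp70, was the only one of the 28 tested panel genes with all 4 libraries at 45 min (366, 110, 43.5 and 75.3 CPM) above all controls (31.6, 39.5, 35.9 and 37.0 CPM). Of all tested genes, 1.45% lay above all controls in this way. The log2 difference of Hsph1 from control was 2.95 in replicates 1 and 2 and 0.64 in replicates 3 and 4. The adjusted p was 0.403 (edgeR). Replicates 3 and 4 alone gave a log2 fold change of 0.68 in the fit of the 6 libraries under 4%, with a nominal p of 0.205 by edgeR.

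Other genes of the heat shock response overlapped between the groups or lay lower at 45 min. Dnajb1, the Hsp40 partner of Hsp70, had 51.9, 44.1, 40.4 and 32.4 CPM in control and 18.8, 20.5, 37.4 and 80.1 CPM at 45 min, so that the groups overlapped. The stress-inducible Hsp70 gene Hspa1b had 24.8, 48.8, 37.0 and 19.7 CPM in control and 71.6, 163, 12.9 and 52.9 CPM at 45 min, with replicate 3 under every control. Hspa1a, a near-identical copy with which it can share reads, held 0, 16.3, 18.0 and 0 CPM in control and 0, 1.15, 21.1 and 22.4 CPM at 45 min. A count of 0 allows up to 3.39 and 3.47 CPM in control replicates 1 and 4 and up to 0.163 CPM in 45 min replicate 1. Bag3, a co-chaperone of Hsp70, overlapped too, with 19.2 to 52.0 CPM in control and 25.6 to 54.4 CPM at 45 min. Hspb1, a small heat shock protein gene, was lower, with 22.6, 9.29, 25.8 and 15.0 CPM in control and 0, 3.93, 4.76 and 4.81 CPM at 45 min. Its groups did not overlap, and in replicate 4 its value stood for no more than the limit that a count of 0 allows there. The exact permutation test gave p = 0.0286 for Hspb1, the smallest that 4 against 4 libraries allow, and 0.60 after adjustment over the 21 panel genes tested this way.

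Of all 26 cytosolic chaperone genes, 15 were tested, 5 were higher and 0 lower at a nominal p under 0.05, beside 12.1% and 0.775% of all genes, and 0 passed after adjustment. Their median log2 difference from control was 3.71 in replicates 1 and 2 and -0.08 in replicates 3 and 4, beside 0.08 and -0.03 for all tested genes. Their median fitted log2 fold change was 2.67, and it turned to -0.17 when libraries were scaled to their ribosomal protein fragments. That scaling moved the median of all tested genes from 0.14 to -0.54. The ribosomal protein share also defines the 2 kinds of library, so the scaling lowers replicates 1 and 2 by construction. Here and below, its values are a description and not a test of a response.

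**Figure D4:**
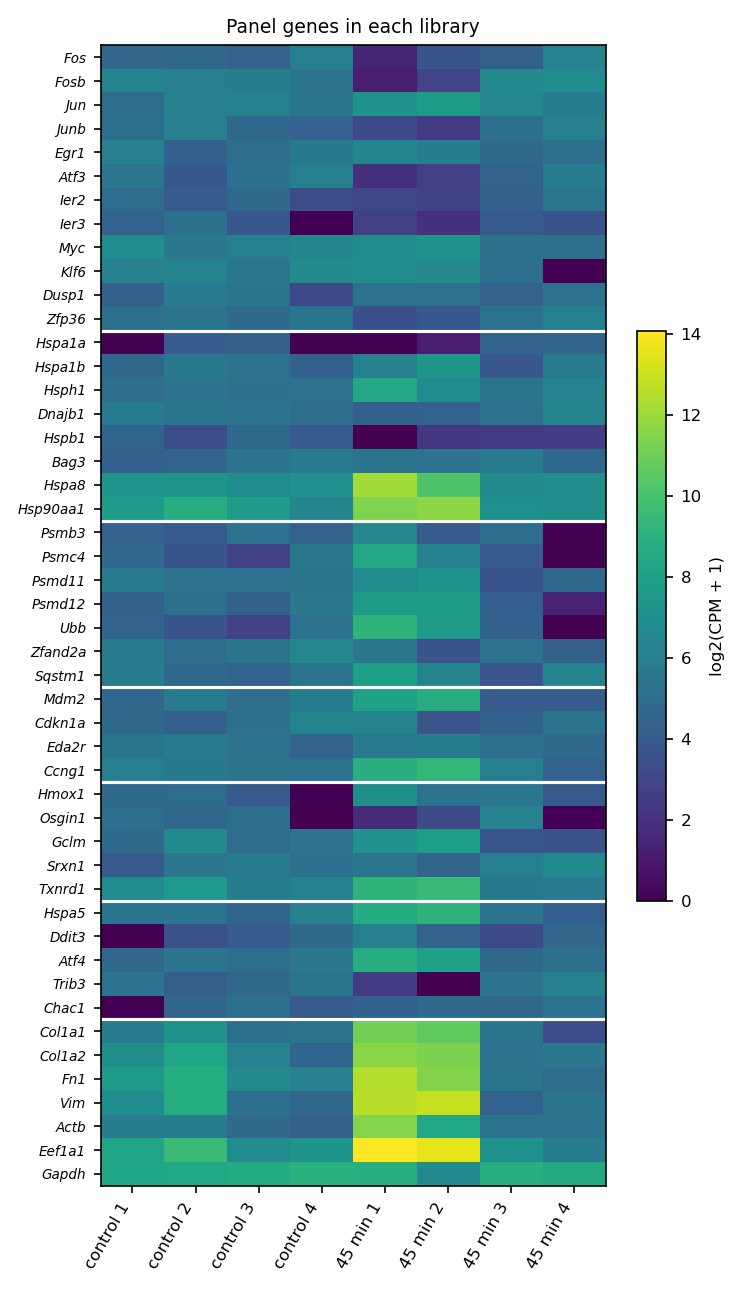
Level of panel genes (rows) in each control and 45 min library (columns), as log2(CPM + 1) from dark (0) to light, with white lines between the immediate early, heat shock, proteasome and ubiquitin, p53, Nrf2, ER stress and Atf4, and fibroblast and housekeeping genes. The columns of 45 min replicates 1 and 2 differ from the others most in the lowest block (Eef1a1 at 17407 and 12340 CPM). In that block the columns of 45 min replicates 3 and 4 mostly lie nearer the controls. Some panel genes leave the control range in 45 min replicates 3 and 4. Examples are Fn1 in the lowest block, at 42.9 and 30.4 CPM against 69.4 to 416 CPM, and Mdm2 in the p53 block, at 16.3 and 16 CPM against 23.7 to 56.9 CPM.

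Proteasome subunit genes gave no call. Of 41, only 9 were tested, and 4 were higher and 0 lower at a nominal p under 0.05, beside 12.1% and 0.775% of all tested genes. The median log2 difference from control was 3.80 in replicates 1 and 2 and -0.43 in replicates 3 and 4. Their median fitted log2 fold change of 2.34 became -0.45 under scaling to ribosomal protein fragments. Psmd12, a subunit of the regulatory particle lid, held 19.2, 36.0, 19.1 and 49.7 CPM in control and 220, 204, 17.7 and 1.60 CPM at 45 min, where the last value is a single fragment. Its log2 fold change was 2.31 ± 1.39 (SE, n = 4 per group; adjusted p = 0.478, edgeR), against 5.54 between the pairs. Psmc4, an ATPase of the particle's base, held 5.61 to 50.9 CPM in control and 344, 72.2, 15.6 and 0 CPM at 45 min, and a count of 0 in replicate 4 allows up to 4.81 CPM. Psmb3, a core particle subunit, ranged from 15.1 to 37.0 CPM in control and read 92.1, 15.9, 31.3 and 0 CPM at 45 min.

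Ubb, a polyubiquitin gene, had the same shape. It held 22.6, 11.6, 5.61 and 38.2 CPM in control and 567, 208, 19.7 and 0 CPM at 45 min. It did not enter the fit, because it had a 0 in at least 1 of the 16 libraries, and a count of 0 in replicate 4 allows up to 4.81 CPM. Sqstm1, which encodes the autophagy receptor p62, ran from 22.4 to 58.7 CPM in control and read 254, 76.5, 12.2 and 81.7 CPM at 45 min, with replicate 3 under the controls. Zfand2a, an arsenite-inducible AN1 zinc finger gene whose protein binds the proteasome, was the only tested panel gene whose difference from control was larger than that between the pairs, 1 of 28 beside 16.6% of all genes. It was on the lower side, at 51.9, 30.2, 42.6 and 92.5 CPM in control and 47.4, 11.5, 38.8 and 19.2 CPM at 45 min, and its groups overlapped (log2 fold change -0.65 ± 0.81, SE, n = 4 per group; adjusted p = 0.751, edgeR). Among 19 ubiquitin genes and adaptors, 11 were tested, and 5 were higher and 0 lower at a nominal p under 0.05, beside 12.1% and 0.775% of all tested genes, with a median log2 difference of 3.07 in replicates 1 and 2 and -0.16 in replicates 3 and 4. Their median fitted log2 fold change of 2.24 turned to -0.36 under scaling to ribosomal protein fragments.

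Immediate early genes, which can respond within 45 min, had no common shape, and several were low in replicates 1 and 2. Fosb, a partner of Jun in the AP-1 factor, held 80.2, 67.3, 62.8 and 40.5 CPM in control and 1.31, 6.22, 107 and 114 CPM at 45 min. Replicates 1 and 2 were under every control and replicates 3 and 4 over every control. Its log2 fold change was -0.16 ± 1.13 (SE, n = 4 per group; adjusted p = 0.95, edgeR), and in the fit of the 6 libraries under 4% it was 0.78, with a nominal p of 0.0666 by edgeR. Fos held 23.7, 25.5, 20.2 and 63.6 CPM in control and 1.80, 11.5, 18.4 and 73.7 CPM at 45 min, with replicate 3 just under the control range and replicate 4 over it. Atf3, a stress-induced repressor, had 13.9 to 64.8 CPM in control and 2.67, 5.40, 21.8 and 59.3 CPM at 45 min. Zfp36, whose product destabilizes mRNAs, was low in the same libraries, at 26.9 to 42.8 CPM in control and 9.68, 13.8, 38.1 and 65.7 CPM at 45 min.

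Myc, a growth-promoting factor, and Klf6, a zinc finger factor, were low in the other pair. Myc had 47.6 to 115 CPM in control and 111, 143, 35.4 and 35.2 CPM at 45 min. Klf6 had 46.0 to 101 CPM in control and 120, 98.2, 32.7 and 0 CPM at 45 min, where a count of 0 in replicate 4 allows up to 4.81 CPM.

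Jun was highest in replicates 1 and 2. It held 30.5, 68.5, 71.8 and 43.9 CPM in control and 151, 205, 92.5 and 60.9 CPM at 45 min, so that only replicate 4 overlapped the controls. Its log2 difference from control was 2.27 in replicates 1 and 2 and 0.53 in replicates 3 and 4, and the difference between the pairs, 1.73, was larger than the mean of these. The fitted log2 fold change was 1.61 ± 0.75 (SE, n = 4 per group; adjusted p = 0.382, edgeR). Egr1, a zinc finger factor, had 19.7 to 70.0 CPM in control and 83.7, 61.6, 25.9 and 35.2 CPM at 45 min, and Dusp1, a phosphatase of MAP kinases, had 8.09 to 54.6 CPM and 20.4 to 38.4 CPM, both overlapping. Of 21 immediate early transcription factor genes, 5 were tested, and 1 was higher and 0 lower at a nominal p under 0.05, beside 12.1% and 0.775% of all tested genes. Their median fitted log2 fold change was 0.12, -0.15 under library size alone and -0.31 under scaling to ribosomal protein fragments, so it had no settled sign. Their summed share was 0.0980% to 0.114% in control and 0.0774%, 0.0980%, 0.0919% and 0.0897% at 45 min, with replicates 1, 3 and 4 under all controls. The 22 other immediate early genes summed to 0.0750% to 0.0861% in control and 0.115%, 0.133%, 0.0963% and 0.101% at 45 min, above all controls in all 4 libraries. Of these, 12 were tested, and 2 were higher and 0 lower at a nominal p under 0.05, beside 12.1% and 0.775% of all tested genes. Also, 2 differed from control by more than the pairs did, both higher (background 8.49%). The median fitted log2 fold change was 1.06, and -0.22 under scaling to ribosomal protein fragments.

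Targets of p53 had a small median difference as a list, while a few members split widely. Ccng1, a cyclin that p53 induces, held 67.8, 51.1, 42.6 and 37.0 CPM in control and 455, 633, 66.0 and 20.8 CPM at 45 min, with replicate 4 under every control (log2 fold change 3.03 ± 1.15, SE, n = 4 per group; adjusted p = 0.381, edgeR). Mdm2, the ubiquitin ligase for p53, held 23.7, 56.9, 31.4 and 52.0 CPM in control and 281, 434, 16.3 and 16 CPM at 45 min. Here replicates 3 and 4 were below all controls. Cdkn1a, the cell cycle inhibitor p21, overlapped, with 18.6 to 80.9 CPM in control and 81.0, 12, 19.7 and 41.6 CPM at 45 min. Of 24 p53 targets, 15 were tested, and 1 was higher and 0 lower at a nominal p under 0.05, beside 12.1% and 0.775% of all tested genes. The median fitted log2 fold change was 0.27, with -0.09 under library size alone and -0.64 under scaling to ribosomal protein fragments.

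Some antioxidant and ER stress genes split in the same way, and others did not. Txnrd1, thioredoxin reductase and an Nrf2 target, had 61.7 to 190 CPM in control and 569, 745, 51.7 and 57.7 CPM at 45 min. Hmox1, heme oxygenase, did not split by pair. It had 28.2, 30.2, 14.6 and 0 CPM in control and 130, 37.0, 44.9 and 14.4 CPM at 45 min. Here 3 of 4 libraries were above all controls (a count of 0 allows up to 3.47 CPM in control replicate 4). Osgin1, another Nrf2 target, held 32.8, 25.5, 33.7 and 0 CPM in control and 2.28, 8.19, 74.2 and 0 CPM at 45 min. Srxn1, sulfiredoxin, was unlike Txnrd1. In unscaled CPM it was higher in replicates 3 and 4 (67.3 and 101 CPM) than in any control (15.8 to 53.9 CPM). It was within the unscaled control range in replicates 1 and 2 (46.0 and 22.6 CPM). In the fit of the 6 libraries under 4% its log2 fold change was 1.11, with a nominal p of 0.0445 by edgeR that did not pass adjustment. Other Nrf2 targets were lower there. Gclm, a subunit of the enzyme that starts glutathione synthesis, had a log2 fold change of -2.08 with a nominal p of 0.0109 by edgeR, and Txnrd1 had -1.02 with a nominal p of 0.0456. Over the list, 2 were higher and 3 lower at a nominal p under 0.05 in that fit, beside 1.71% and 3.21% of its genes. The lower ones depended on control replicate 2, which held the most Gclm and Txnrd1 among controls (102 and 190 CPM). Without that library 0 were lower at that threshold, and the list's median log2 fold change went from -0.22 to 0.02. Of 23 Nrf2 targets, 14 were tested, and 3 were higher and 0 lower at a nominal p under 0.05, beside 12.1% and 0.775% of all tested genes. Their median log2 difference was 1.74 in replicates 1 and 2 and -0.49 in replicates 3 and 4, and the median fitted log2 fold change was 1.44, or 0.02 scaled to ribosomal protein fragments.

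Hspa5, the ER Hsp70 BiP, held 44.0, 39.5, 23.6 and 70.5 CPM in control and 406, 566, 39.5 and 17.6 CPM at 45 min. Atf4, whose mRNA encodes the central factor of the integrated stress response, held 24.8, 39.5, 33.7 and 46.2 CPM in control and 435, 264, 25.9 and 35.2 CPM at 45 min. The log2 fold change of Atf4 was 2.84 ± 1.21 (SE, n = 4 per group; adjusted p = 0.381, edgeR), against 3.97 between the pairs. Its target Trib3 did not follow, with 18.6 to 42.8 CPM in control and 4.46, 0, 40.1 and 70.5 CPM at 45 min, where a count of 0 in replicate 2 allows up to 0.491 CPM. Chac1, another target, read 0, 23.2, 34.8 and 15.0 CPM in control and 19.4, 28.5, 24.5 and 40.0 CPM at 45 min. Of 30 ER stress and Atf4 genes, 18 were tested, and 9 were higher and 0 lower at a nominal p under 0.05, beside 12.1% and 0.775% of all tested genes. Their median log2 difference was 2.56 in replicates 1 and 2 and -0.46 in replicates 3 and 4, and the median fitted log2 fold change of 1.84 became -0.33 under scaling to ribosomal protein fragments.

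Genes that are not known for these stress responses split as well. Of the 87 ribosomal protein genes without the S6 kinases, 56 had at least 1 fragment in every library. Their summed share separates the pairs by definition, so their values are given as a description. Their median log2 difference was 4.49 in replicates 1 and 2 and -0.16 in replicates 3 and 4. Rps29, of the small ribosomal subunit, read 65.5, 1004, 60.6 and 41.6 CPM in control, with replicate 2 standing apart, and 2061, 5747, 10.2 and 14.4 CPM at 45 min, above all controls in replicates 1 and 2 and below all of them in replicates 3 and 4. The difference between the pairs was 8.58 on the log2 scale. Rpl4, of the large subunit, read 12.7 to 319 CPM in control and 3869, 3304, 19.0 and 16 CPM at 45 min. Ribosomal protein genes have many pseudogene copies, so their counts depend on how shared reads were assigned.

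Fibroblast and cytoskeletal genes belong to this group. Vim, the intermediate filament vimentin, held 114, 420, 34.8 and 24.3 CPM in control and 6006, 7302, 21.8 and 41.6 CPM at 45 min. Its log2 difference from control was 6.84 in replicates 1 and 2 and -1.42 in replicates 3 and 4. Col1a1, the collagen I alpha chain, held 51.9, 145, 34.8 and 41.6 CPM in control and 2206, 1596, 44.2 and 9.61 CPM at 45 min. Actb differed even within the pair, with 19.7 to 62.1 CPM in control and 2836, 331, 40.1 and 40.0 CPM at 45 min. Tpt1, the translationally controlled tumor protein, read 32.5 to 329 CPM in control and 4057, 5230, 27.2 and 16 CPM at 45 min. Gapdh, which also has many pseudogenes, showed no such split, at 316, 340, 397 and 506 CPM in control and 464, 105, 458 and 381 CPM at 45 min (log2 fold change 0.04 ± 0.70, SE, n = 4 per group; adjusted p = 0.981, edgeR).

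Among the lists as a whole, the median log2 difference from control in replicates 1 and 2 was 4.84 for fibroblast markers (13 tested of 20), 4.04 for actin cytoskeleton and SRF targets (13 of 21), 3.42 for translation factors (27 of 35), 3.38 for oxidative phosphorylation (8 of 56) and 3.15 for cell cycle genes (12 of 24). The heat shock, proteasome and ubiquitin lists were at 3.71, 3.80 and 3.07. In replicates 3 and 4 the medians of the lists from fibroblast markers to cell cycle ran from -0.56 to -0.38. For glycolysis (7 of 14) and NF-kappaB factors and inflammatory targets (8 of 18) the medians were 1.06 and 0.94 in replicates 1 and 2 and 0.01 and 0.20 in replicates 3 and 4. At a nominal p under 0.05, 8 fibroblast markers, 9 cytoskeletal genes, 18 translation factors, 5 oxidative phosphorylation genes, 6 cell cycle genes, 2 glycolytic genes and 0 NF-kappaB genes were higher, and none of these lists held a lower one, beside 12.1% higher and 0.775% lower among all tested genes. When scaled to ribosomal protein fragments, the median fitted log2 fold change was 0.09 for fibroblast markers, against 3.38 under TMM. It turned from 2.90 to -0.17 for the cytoskeletal list, from 2.71 to -0.29 for translation factors, from 2.32 to -0.42 for oxidative phosphorylation, from 2.25 to -0.56 for cell cycle genes, from 0.85 to -0.54 for glycolysis and from 0.47 to -0.49 for NF-kappaB genes, which were also at -0.02 under library size alone.

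The 5 genes furthest below replicates 3 and 4 in replicates 1 and 2 had the opposite shape. Sp110, a nuclear body protein, held 145, 193, 168 and 145 CPM in control and 0.0544, 0.491, 163 and 181 CPM at 45 min, where 0.0544 CPM is a single fragment. Syt12, a synaptotagmin of vesicle trafficking, held 114 to 183 CPM in control and 0.0544, 1.15, 171 and 171 CPM at 45 min. Ap1s3, a small subunit of the AP-1 clathrin adaptor, held 3814 to 4343 CPM in control and 3.10, 204, 4400 and 4424 CPM at 45 min. Gm7609, a predicted gene, and the vomeronasal receptor Vmn1r58 had the same pattern, with 0.925, 25.4, 970 and 921 CPM and with 1.52, 88.4, 1993 and 1948 CPM at 45 min. The fitted fold change compares mean counts, so 2 libraries near 0 among 4 lower it by little, and the log2 fold change of Sp110 was -0.96 ± 1.41 (SE, n = 4 per group; adjusted p = 0.77, edgeR).

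Some genes had all 4 libraries at 45 min on the same side of all controls, in both kinds of library. Such genes made up 1.45% (above) and 2.68% (below) of those tested. With 4 against 4 libraries in random order, complete separation has a probability of 0.0286, divided equally between above and below. The share above was near that rate for its direction, so genes above cannot be told from random order by their number. The share below was larger, and its cause was not tested. The genes named here and in the next 3 paragraphs were chosen for this separation, so it is a description and not a test. Tceal8, of the transcription elongation factor A-like family, had the smallest p among genes with all 4 libraries above all controls. It held 5.65, 12.8, 12.3 and 1.16 CPM in control, the last a single fragment, and 174, 131, 18.4 and 43.3 CPM at 45 min. Its log2 fold change was 3.94 ± 0.99 (SE, n = 4 per group; adjusted p = 0.381, edgeR), and the log2 difference from control was 4.98 in replicates 1 and 2 and 2.08 in replicates 3 and 4. Golph3, a Golgi protein of vesicle trafficking, held 26.0, 31.3, 23.6 and 4.62 CPM in control and 180, 152, 42.2 and 91.3 CPM at 45 min (log2 differences 3.68 and 1.76). Sec24b, a cargo adaptor of the COPII coat that leaves the ER, held 48.6, 24.4, 34.8 and 32.4 CPM in control and 167, 112, 76.9 and 64.1 CPM at 45 min (2.47 and 1.01). For these 3 genes the difference from control exceeded the difference between the pairs.

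Cdk4, the G1 cyclin-dependent kinase, held 26.0, 17.4, 25.8 and 9.25 CPM in control and 378, 85.5, 53.1 and 68.9 CPM at 45 min. Lsm12, an RNA-binding protein, read 18.1, 8.13, 13.5 and 27.8 CPM in control and 82.5, 56.0, 52.4 and 51.3 CPM at 45 min, with little spread among the treated libraries. Ap1m1, a medium subunit of the AP-1 adaptor, read 1.13, 8.13, 19.1 and 18.5 CPM in control and 59.0, 18.0, 42.9 and 33.6 CPM at 45 min. Its groups were separate after TMM scaling but touched in these unscaled values. Dap, a death-associated protein, and Dbf4, the activating subunit of the replication kinase Cdc7, were also above all controls, with 330, 156, 46.3 and 40.0 CPM and with 141, 190, 26.5 and 46.5 CPM at 45 min. For both, the pairs differed from each other by more than the group differed from control.

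On the lower side, Slc41a3, of a magnesium transporter family, held 39.5, 22.1, 30.3 and 57.8 CPM in control and 3.26, 6.88, 9.52 and 6.41 CPM at 45 min. Both pairs differed from control by about the same amount, -2.28 and -2.10 on the log2 scale (log2 fold change -2.31 ± 0.75, SE, n = 4 per group; adjusted p = 0.381, edgeR). Adarb1, an adenosine deaminase that edits RNA, held 94.9, 113, 120 and 97.1 CPM in control and 11.1, 17.4, 29.3 and 35.2 CPM at 45 min, with a narrow control range. Its log2 difference was -2.40 in replicates 1 and 2 and -1.72 in replicates 3 and 4. Zdhhc5, a palmitoyltransferase, held 48.2 to 106 CPM in control and 28.6, 12.3, 10.9 and 27.2 CPM at 45 min. Saal1 held 48.6 to 69.6 CPM in control and 14.0, 16.9, 14.3 and 4.81 CPM at 45 min, and Rpusd2, with a pseudouridine synthase domain, 30.5 to 78.6 CPM and 6.20, 8.84, 26.5 and 8.01 CPM. For each of these 5 genes the difference from control exceeded that between the pairs. In 45 min replicate 4, Slc41a3, Saal1 and Rpusd2 rest on 4, 3 and 5 fragments, and a count of 0 allows up to 3.

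Senp8, a protease for NEDD8, Xpc, which recognizes damaged DNA, and Rbak, a KRAB zinc finger protein, were lower in both pairs as well. All of them had a single fragment (1.60 CPM) in replicate 4 and stood much higher in replicate 3, at 33.3, 35.4 and 42.9 CPM, against control ranges of 41.5 to 49.7, 41.8 to 69.6 and 56.1 to 109 CPM. The mean of that pair therefore rests on the shallowest library. Genes with all 4 libraries above all controls had a median transcript length of 4467 bases and those below 4802, beside 4153 for all tested genes, whereas the genes higher at a nominal p under 0.05 had 2940.

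**Figure D5:**
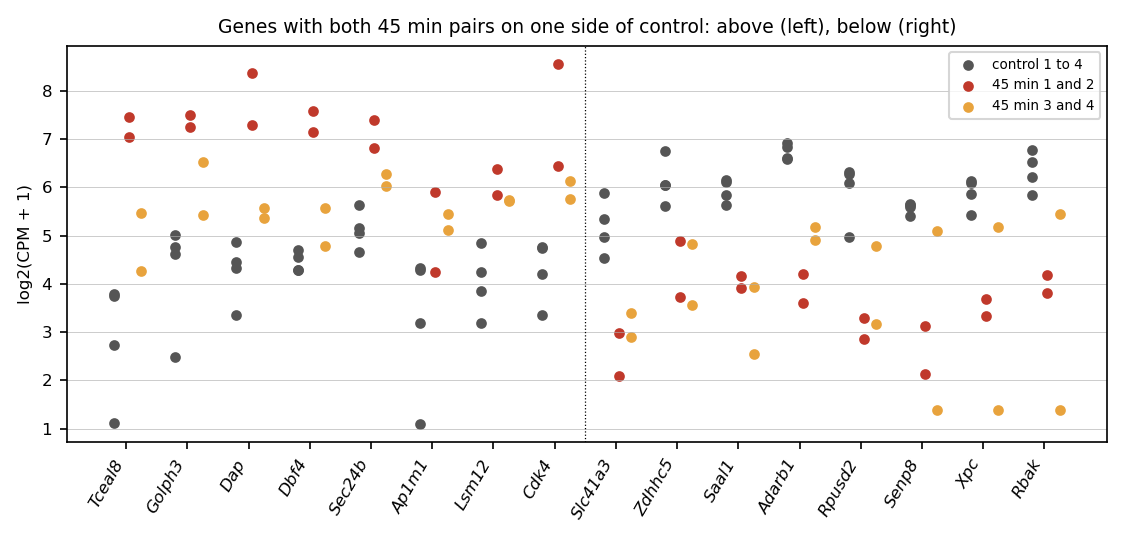
Level in log2(CPM + 1), unscaled, of 8 genes above (left of the dotted line) and 8 genes below (right) control in both pairs of 45 min libraries, 1 point per library, with controls in grey, 45 min replicates 1 and 2 in red and 45 min replicates 3 and 4 in orange. Slc41a3 has all 4 treated libraries at 3.26 to 9.52 CPM, under its controls at 22.1 to 57.8 CPM, and for Senp8, Xpc and Rbak the lowest orange point is a single fragment.

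Within the 6 libraries under 4%, which compare replicates 3 and 4 with all controls, 13548 genes could be tested, and 0 passed at an adjusted p under 0.05 (edgeR, smallest 0.677). At a nominal p under 0.05, 232 were higher (1.71%) and 435 lower (3.21%). The biological coefficient of variation was 46.2% here, against 79.1% over all 16 libraries. Of 28 translation factors in this fit, 5 were lower and 0 higher at that threshold, and without control replicate 2, whose ribosomal protein share (1.21%) was the highest among controls, 1 was lower. Fn1, which encodes fibronectin, held 199, 416, 96.5 and 69.4 CPM in control and 42.9 and 30.4 CPM in replicates 3 and 4, below all controls, but 5940 and 2708 CPM in replicates 1 and 2. Its log2 fold change was -2.42 in this fit (adjusted p = 0.677, edgeR), with 3.94 ± 1.82 (SE) in the fit with all 4 libraries at 45 min.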

How the data were processed

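RNA from NIH3T3 cells was sequenced (Illumina, total RNA and a NuGEN Encore Complete kit per the labels; the methods also describe poly(A) selection). The methods name mm9 with RefSeq on DNAnexus, while the submitters' processing notes list mm10, so no coordinates are given. The aligner is not given in the sources used here. For each library, the authors deposited estimated counts (raw fragments) of 23356 genes, which were rounded to whole counts. The deposited scaled fragments and FPKM were not used. In the table of 45 min replicate 1, 27 symbols turned into dates were restored by row order. Groups came from the sample titles.

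Genes with at least 1 count in all 16 libraries (5030) were fitted with edgeR 4.0.16 (R 4.3.3), TMM, 1 mean per group, 12 residual degrees of freedom and Benjamini-Hochberg adjustment at 0.05. Standard errors were obtained as log2 fold change over root F. CPM values printed are over all assigned fragments, unscaled. Pair differences, and the counts and choice of genes beyond all controls, used TMM-scaled CPM over tested genes with a pseudocount of 1. Statements on the range or overlap of a single gene refer to the printed unscaled CPM, which can differ from the scaled order. Panel genes outside the fit were compared by 2-sided exact permutation tests. Lengths of the longest protein-coding transcript came from GENCODE M1 by symbol (19565 genes). Of these steps, only the edgeR fit was run on simulated counts. These held no split between 2 kinds of library, so the simulation does not cover that split. Limits for counts of 0 are 3 counts, for counting error only.

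The members, panel, gene lists and tests were chosen with earlier results of these data known. Named were the panel of 49 genes and, per direction, up to 5 genes each with the smallest p among those beyond all controls, with the largest difference between the pairs, and with the largest smaller pair difference, plus any gene called by an alternative with 5 or fewer calls. Of the named genes, 2 are not reported here. Zfp488 was named after its values were seen. Alternatives were RLE and library size scaling, other filters, DESeq2 1.42.0, edgeR's exact test, a replicate block, thinning to 570323 fragments, each pair alone, ribosomal protein class as a term, and leaving out each library. Added after the data were seen were DESeq2 without independent filtering, the 6 libraries under 4% alone, these without control replicate 2, and scaling to ribosomal protein fragments.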

Additional observations from a re-analysis of the deposited data

Results flagged for a closer look

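A library was looked at again where it lay far from the other 3 of its group for a panel gene or library share. This held in 4 of 106 groups, and chance alone flags about 1 in 20. In log2(CPM + 1), Dusp1 was 4.42 in 45 min replicate 3, against 5.24 to 5.30 in the others. Hspb1 was 0 in 45 min replicate 1, against 2.30 to 2.54. Osgin1, an Nrf2 target, was 0 in control replicate 4, against 4.73 to 5.12. Gapdh was 6.73 in 45 min replicate 2, against 8.58 to 8.86.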

How the results depend on the processing

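The count of 0 genes higher at an adjusted p under 0.05 changed with DESeq2 (330), with DESeq2 without independent filtering (1) and with 45 min replicates 1 and 2 only (640). The count of 0 lower changed only with replicates 1 and 2 (340). It stayed 0 in each direction with every library left out in turn. At a nominal p under 0.05, the 609 higher and 39 lower became 268 higher (37 lower) with library size only, 1204 and 132 with filterByExpr, 1244 and 609 with no filter, and 1262 and 131 with genes present in these 8 libraries. With the 8 libraries fitted alone on the same genes 76 were lower, and with DESeq2 94, with or without its filter. With replicates 1 and 2 only, 1253 were higher and 961 lower, with replicates 3 and 4 only 9 were higher, and with ribosomal protein class as a term 20 and 20. The 6 libraries under 4% gave 232 and 435, or 208 and 320 without control replicate 2. Scaling to ribosomal protein fragments gave 0 and 11. Leaving out 1 library gave 163 to 884 higher and 12 to 170 lower. The lowest and highest higher counts came without 45 min replicate 2 and replicate 4, and without replicate 1 it was 211. Without control replicates 1, 3 and 4 it was 300, 276 and 266. On the lower side, counts were 24 without control replicate 4, and 18, 12, 170 and 69 without 45 min replicates 1 to 4. The cause was not tested.

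With the replicate number as a replicate block, 165 genes were higher and 93 lower at a nominal p under 0.05, and 0 passed adjustment. Deviations of same-numbered control and 45 min libraries correlated with r = 0.0039, 0.398, 0.203 and 0.142, not all over 0.1. Correlations of differently numbered libraries were not computed, so these values cannot decide whether the numbers pair the libraries. The main fit did not use the numbers.

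Of 53 fitted log2 fold changes, 28 changed sign with replicates 3 and 4 only, 29 in the 6 libraries under 4%, 17 under scaling to ribosomal protein fragments and 1 with RLE. Counts of genes whose difference exceeded that between the pairs stayed within 1.5 times with a pseudocount of 0.5 (833 in all) and unscaled CPM (872). Depth limits single libraries: 1 fragment is 1.60 CPM in 45 min replicate 4 and 0.0544 CPM in replicate 1.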
